A study of Homo sapiens with 4 samples.

Results

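The 10 genes described here, E2F1, CDC6, PCNA, RRM2, CCNA2, CCNB1, CDK1, PLK1, TOP2A and MKI67, drive or mark DNA replication and cell division. They were chosen by name. A peak was counted as theirs when it overlapped the gene's hg19 span, which is known here to the nearest kb, or the 2 kb on either side of it. In the full peak lists these spans held 14 of 17887 TAF3 peaks, 14 of 17975 H3K4me3 peaks and 49 of 61456 RNAPII peaks, which is 77 of 97318 in all. The data are chromatin immunoprecipitation followed by sequencing (ChIP-seq) from HCT116, an established human colorectal carcinoma cell line, with 1 library each for TAF3 (polyclonal antiserum), H3K4me3, RNAPII and input DNA. All 4 libraries came from monolayers of the same line with no genetic change or drug given in the labels, and no synchronisation is given either, so every value is an average over the cells of the culture. Between 12560129 (H3K4me3) and 17411155 (TAF3) antibody tags were kept per library, against 19185386 input tags. With 1 library per antibody there is no replicate error. No test of a difference between genes was possible, and intervals below cover counting error only.

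TAF3 is a subunit of TFIID, the general transcription factor that recognises core promoters, and its PHD finger binds histone H3 trimethylated at lysine 4 (H3K4me3), a mark of promoters. RNA polymerase II (RNAPII) is recruited after TFIID in the assembly of the preinitiation complex. Cell cycle genes are known to fall into an early group, which E2F factors and RB proteins control at entry into S phase, and a late group, which is expressed in G2 and mitosis. Promoters of the late group are known for CCAAT boxes, bound by NF-Y, and for the cell cycle genes homology region (CHR, TTTGAA), bound by the MuvB core of the DREAM and MYB-MuvB complexes.

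All 10 genes carried a TAF3, an H3K4me3 and an RNAPII peak at the 5′ end, and each of these peaks passed the filter of the authors, which required more than 5-fold enrichment over input and a false discovery rate under 5%. By fold enrichment the H3K4me3 peaks were mostly high in their list, the RNAPII peaks were above the middle of theirs, and the TAF3 peaks were spread around the middle of theirs. By tags per kb of peak, 9 of the 10 TAF3 peaks, all but that of CDC6, lay below the median of the filtered TAF3 list (118), as did 1 H3K4me3 and 1 RNAPII peak in theirs. The 5′ end was taken as the first kb of the span with 2 kb on both sides, and the peak of highest fold enrichment there was used. All 14 TAF3 and all 14 H3K4me3 peaks in the spans passed the filter, compared with 65.8% and 79.5% of all peaks in those lists, and 24 of the 49 RNAPII peaks did, compared with 40.7%. Across the genome 80.6% of filtered H3K4me3 peaks overlapped both a filtered TAF3 and a filtered RNAPII peak, so the presence of all 3 at 10 promoters is common among marked sites.

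TAF3 fold enrichment at the 10 promoters had a median of 39.9 and ran from 16.5 to 62.3, against a median of 36.1 and quartiles of 24.6 and 53.0 over the 11765 filtered TAF3 peaks. H3K4me3 had a median of 227 and ran from 102 to 264, against a median of 126 and an upper quartile of 170 over 14298 filtered peaks. RNAPII had a median of 130 and ran from 62.8 to 224, against a median of 44.8 and an upper quartile of 104 over 25013 filtered peaks. The H3K4me3 peaks of 7 genes (CDC6, RRM2, CCNA2, CCNB1, CDK1, TOP2A and MKI67) lay at or above the 90th percentile of their list, a level that 9.99% of all filtered H3K4me3 peaks reach. At that percentile of their own lists lay 3 RNAPII peaks (RRM2, CCNA2 and TOP2A; 10% of all) and 0 TAF3 peaks (9.94% of all).

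**Figure D1:**
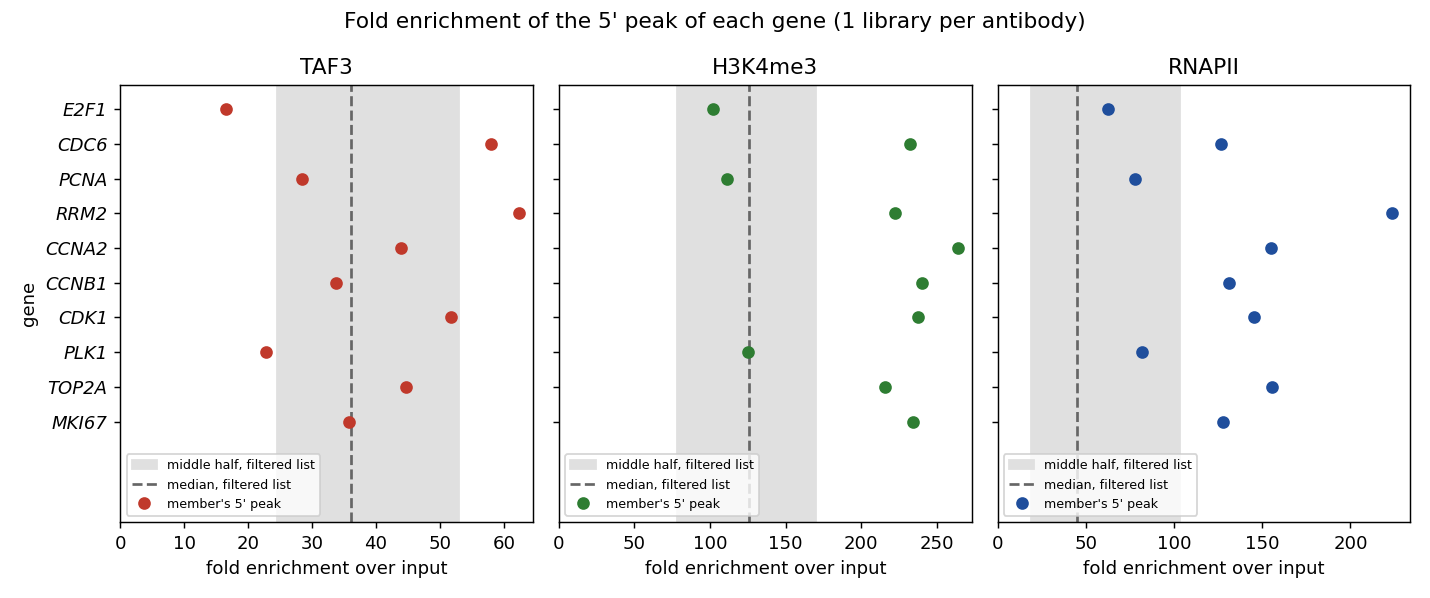
Fold enrichment over input of the strongest peak at the 5′ end of each gene, with 1 panel per antibody and a linear axis from 0. Points are single peaks, the dashed line is the median of the filtered list and the grey band runs between its quartiles; 7 H3K4me3 points lie to the right of the band, while TAF3 points lie on both sides of the median.

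The RNAPII list is longer than the others and holds many weak peaks away from promoters, so the percentiles were also taken among peaks that overlap both partners. On that footing the TAF3 peaks had a median percentile of 55.4 over the 10 genes, the H3K4me3 peaks 92.1 and the RNAPII peaks 66.3. The ranks depended on the measure. Ranked by tags per peak, TAF3 peaks had a median percentile of 37.2, H3K4me3 peaks 67.9 and RNAPII peaks 67.7. Ranked by tags per kb, TAF3 peaks had 28.8, H3K4me3 peaks 79.1 and RNAPII peaks 71.9. Among the 2918 filtered TAF3 peaks whose strongest H3K4me3 peak was in the top 20% of its list (182-fold or more), the median TAF3 fold enrichment was 53.4. Of the 7 genes with H3K4me3 in that range, 5 had less TAF3 than this median and 2, CDC6 and RRM2, had more. Among the 2982 RNAPII peaks chosen in the same way the median was 146-fold, and 4 of the 7 genes had less. Within these sets the 7 genes had a median percentile of 34.5 for TAF3 and 49.1 for RNAPII. These comparisons were chosen after the values were seen.

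**Figure D2:**
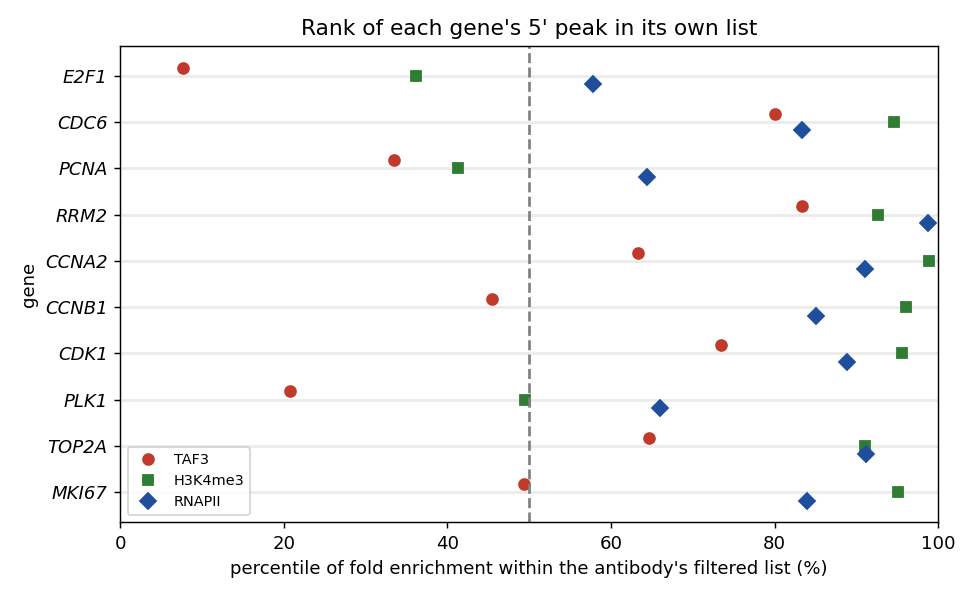
Percentile of each gene's 5′ peak by fold enrichment within the filtered list of its own antibody, with 1 row per gene and 1 marker per antibody; the dashed line is the middle of each list. E2F1, PCNA and PLK1 have the lowest H3K4me3 percentiles (36.2, 41.3 and 49.5), and the other 7 genes are at 91.0 or more.

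The early regulator E2F1 encodes the transcription factor that switches on genes for S phase. Its promoter had the lowest fold enrichment of the 10 for every antibody, 16.5 for TAF3 (88 tags), 102 for H3K4me3 (517 tags) and 62.8 for RNAPII (262 tags). For H3K4me3 this depends on the PCNA peak taken, since the weaker one over the PCNA TAF3 summit had 91.5-fold (219 tags). The TAF3 peak of E2F1, chr20:32273331-32274693, stood at percentile 7.69 of the filtered TAF3 list. The exact Poisson 95% interval of its 88 tags, 70.6 to 108, lay below the tag count of each of the other 9 genes. That interval overlapped the interval of PLK1 (101 to 146). Per kb of peak E2F1 also had the least TAF3, 64.6 tags. CDC6, which loads the replicative helicase onto origins, was high for all 3 by fold enrichment, at percentiles 80.0 (TAF3), 94.6 (H3K4me3) and 83.4 (RNAPII). By tags its percentiles were 58.9, 51.9 and 74.9. CDC6 had 58.0-fold TAF3 (215 tags), 232-fold H3K4me3 (703 tags) and 127-fold RNAPII (440 tags). Its TAF3 peak, chr17:38443592-38444888, was the narrowest of the 10 at 1297 bp and had the highest density, 166 tags per kb.

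Promoter sequence was taken from RefSeq (GRCh38.p14), matched by symbol for all 10 genes. It was not placed inside the peaks by position, because the peaks are in hg19. Each window runs from 250 bases before a start to 50 after it, with 13 windows for the 10 genes. E2F1 and CDC6 are shown because their windows hold E2F octamers (TTTCCCGC, TTTCGCGC, TTTGCCGC or TTTGGCGC, on either strand), which are in capitals with CCAAT, also on either strand. The E2F1 sequence is the 250 bases before the start (chr20:33686386-33686635, minus strand), and the CDC6 sequence is the short stretch around the start (chr17:40287873-40287898, plus strand).
E2F1: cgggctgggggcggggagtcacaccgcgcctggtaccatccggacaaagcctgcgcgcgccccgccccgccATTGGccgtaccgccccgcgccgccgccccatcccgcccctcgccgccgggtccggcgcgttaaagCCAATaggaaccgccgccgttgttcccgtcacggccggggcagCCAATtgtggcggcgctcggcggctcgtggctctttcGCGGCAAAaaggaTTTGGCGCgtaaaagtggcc
CDC6: gtggccattcggaTTTGGCGCgagcg
The 2 octamers of E2F1 begin 33 and 20 bases before the start, and that of CDC6 begins at base 8 of the transcript.

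PCNA, the sliding clamp of the replication fork, was unlike the other genes in having a peak of each antibody well inside its span. The 5′ end carried 28.4-fold TAF3 (255 tags), 111-fold H3K4me3 (873 tags) and 78.1-fold RNAPII (458 tags). The inner site, at chr20:5099078-5101265 for TAF3, carried 65.6-fold TAF3 (434 tags), 177-fold H3K4me3 (1144 tags) and 137-fold RNAPII (783 tags). By fold enrichment and by tags per peak the inner site was the higher for every antibody. Per kb of peak it had more TAF3 (198 against 118 tags) and RNAPII (427 against 229) but less H3K4me3 (365 against 484). The TAF3 fold enrichment of the inner site was the highest of the 14 TAF3 peaks in the 10 spans. The TAF3 summits of the inner site and the 5′ end were 6533 bp apart and the RNAPII summits 6579 bp apart in hg19. RefSeq lists 2 starts for PCNA, 6664 bp apart in GRCh38. At the 5′ end H3K4me3 was split into a peak of 91.5-fold (219 tags) over the TAF3 summit and the 111-fold peak on the side of CDS2, the neighbouring gene, which is transcribed away from PCNA. Reads at that end cannot be assigned to PCNA or CDS2.

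Both PCNA starts are shown because the span holds separate sets of peaks, with CCAAT and the E2F octamers in capitals. They are the 250 bases before the inner start (chr20:5119959-5120208, minus strand) and before the outer start (chr20:5126623-5126872, minus strand).
PCNA inner: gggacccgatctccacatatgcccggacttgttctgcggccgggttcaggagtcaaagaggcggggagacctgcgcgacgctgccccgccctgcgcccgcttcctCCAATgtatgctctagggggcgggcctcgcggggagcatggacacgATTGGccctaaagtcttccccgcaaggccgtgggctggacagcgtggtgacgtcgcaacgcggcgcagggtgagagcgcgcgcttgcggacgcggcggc
PCNA outer: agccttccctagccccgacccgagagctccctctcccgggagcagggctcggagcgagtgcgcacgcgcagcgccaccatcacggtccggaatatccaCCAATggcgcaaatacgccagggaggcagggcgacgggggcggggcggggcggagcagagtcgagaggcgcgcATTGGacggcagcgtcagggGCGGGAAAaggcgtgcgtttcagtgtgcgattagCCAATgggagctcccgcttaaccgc
The outer window holds 3 CCAAT boxes and an octamer 59 bases before the start. The inner one holds 2 CCAAT boxes, and none of these octamers is in its window.

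RRM2, the regulated subunit of ribonucleotide reductase, which makes deoxynucleotides, had the widest H3K4me3 and RNAPII promoter peaks of the 10. It had 62.3-fold TAF3 (289 tags), 222-fold H3K4me3 (1887 tags) and 224-fold RNAPII (1283 tags). The H3K4me3 peak, chr2:10259629-10264419, was 4791 bp wide (percentile 98.7 of widths), and only 304 of 25013 filtered RNAPII peaks had a higher fold enrichment than the RNAPII peak. Both covered a second TAF3 peak upstream, at chr2:10259940-10261505, with 38.4-fold enrichment and 202 tags. RNAPII tags in the RRM2 promoter peak (95% interval 1210 to 1360) exceeded those of the 5′ peak of each of the other 9 genes, the next being 458 at PCNA, and also the 783 tags of the inner PCNA site. Per kb of peak RRM2 had 345 RNAPII tags and CDC6, with a narrower peak, 384.

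The cyclin genes CCNA2 and CCNB1 and the gene of their partner kinase, CDK1, had the highest H3K4me3 fold enrichments of the 10. CCNA2, the S and G2 phase cyclin, had 43.9-fold TAF3 (154 tags), 264-fold H3K4me3 (1057 tags) and 155-fold RNAPII (364 tags), and 152 of 14298 H3K4me3 peaks had a higher fold enrichment. CCNB1, the mitotic cyclin, had 33.7-fold TAF3 (137 tags), 240-fold H3K4me3 (785 tags) and 131-fold RNAPII (372 tags). CDK1 had 51.7-fold TAF3 (132 tags), 238-fold H3K4me3 (860 tags) and 146-fold RNAPII (208 tags). In these 3 genes TAF3 tag counts had overlapping 95% intervals (131 to 180, 115 to 162 and 110 to 157), so their order by TAF3 tags is within counting error, while the 208 RNAPII tags of CDK1 (181 to 238) were fewer than those of CCNA2 and CCNB1. Per kb of peak RNAPII had 160 tags in CDK1, 219 in CCNA2 and 364 in CCNB1. CCNB1 has a second, weaker RNAPII peak at its 5′ end (38 tags, outside the filter). With that peak included its density was 232 tags per kb, near that of CCNA2.

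PLK1, a mitotic kinase, was lower, with 22.8-fold TAF3 (122 tags), 125-fold H3K4me3 (1130 tags) and 82.0-fold RNAPII (271 tags). Its H3K4me3 rank depended on the measure, percentile 49.5 by fold enrichment and 81.4 by tags. TOP2A, the topoisomerase that untangles chromosomes, had 44.8-fold TAF3 (146 tags), 216-fold H3K4me3 (948 tags) and 155-fold RNAPII (345 tags). MKI67, which encodes the proliferation marker Ki-67, had 35.8-fold TAF3 (242 tags), 234-fold H3K4me3 (1665 tags) and 128-fold RNAPII (413 tags). MKI67 had the widest TAF3 peak of the 10 promoters, 2675 bp, and its H3K4me3 peak of 3278 bp was exceeded in width only by that of RRM2.

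Sequences of 4 further promoters are shown because they carry the elements of late cell cycle genes or repeated CCAAT boxes. They are the 250 bases before the start of CDK1 (the downstream of its 2 RefSeq starts, chr10:60778228-60778477, plus strand), MKI67 (chr10:128126424-128126673, minus strand), PLK1 (chr16:23678639-23678888, plus strand) and RRM2 (the downstream of its 2 starts, chr2:10122489-10122738, plus strand). Capitals mark CCAAT and, where present, TTTGAA, on either strand, and in CDK1 also an E2F octamer.
CDK1: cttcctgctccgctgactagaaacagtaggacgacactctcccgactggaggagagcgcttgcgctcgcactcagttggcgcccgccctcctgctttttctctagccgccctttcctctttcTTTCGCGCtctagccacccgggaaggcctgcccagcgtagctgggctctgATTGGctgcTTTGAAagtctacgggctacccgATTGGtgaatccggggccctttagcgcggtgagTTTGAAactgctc
MKI67: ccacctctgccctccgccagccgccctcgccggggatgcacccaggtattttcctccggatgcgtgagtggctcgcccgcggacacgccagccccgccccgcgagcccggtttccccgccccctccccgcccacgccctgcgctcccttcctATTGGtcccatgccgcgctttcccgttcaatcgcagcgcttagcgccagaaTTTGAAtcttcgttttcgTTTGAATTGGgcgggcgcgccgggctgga
PLK1: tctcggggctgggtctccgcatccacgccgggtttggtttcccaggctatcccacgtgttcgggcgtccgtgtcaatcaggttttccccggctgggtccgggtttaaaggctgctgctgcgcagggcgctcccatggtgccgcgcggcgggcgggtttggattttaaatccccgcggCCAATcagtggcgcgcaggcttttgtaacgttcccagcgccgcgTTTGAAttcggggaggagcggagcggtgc
RRM2: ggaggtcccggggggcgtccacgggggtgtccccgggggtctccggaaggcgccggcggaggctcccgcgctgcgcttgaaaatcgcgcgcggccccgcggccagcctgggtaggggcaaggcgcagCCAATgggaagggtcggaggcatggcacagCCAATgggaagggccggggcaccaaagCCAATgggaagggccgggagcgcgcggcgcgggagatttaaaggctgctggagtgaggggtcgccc
In MKI67 the second TTTGAA and the second CCAAT, read on the other strand, share a base and appear as 1 run. In RRM2 the 3 CCAAT boxes begin 123, 93 and 66 bases before the start.

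CCAAT was present in all 13 windows of the 10 genes, against 34.6% of 35116 RefSeq windows. The number per window ran to 4 in TOP2A. TTTGAA was present in 5 of the 13 windows, against 15.2% of all windows, and these belonged to 4 genes (CDK1, PLK1, TOP2A and MKI67). An E2F octamer was also in 5 of 13, against 3.31%, and these belonged to E2F1, CDC6, PCNA and CDK1. CDK1 held all 3 kinds of element. TATAAA was found in 1 of 13, that of TOP2A (11.5% of all windows), and the GC box GGGCGG in 11 of 13, from 9 genes, all but CDC6 (45% of all windows). The windows of CDK1 overlap, with starts 147 bp apart, as do those of RRM2, with starts 171 bp apart. The octamer and the GC boxes of CDK1 are therefore counted in both of its windows, and the windows are not independent. Motifs were searched on both strands and may overlap each other, and these matches are descriptions of letters, not of bound sites. Genes with TTTGAA had TAF3 fold enrichments of 22.8 to 51.7 and genes with an E2F octamer had 16.5 to 58.0. CDK1, at 51.7, belongs to both groups, so these ranges had to overlap and do not compare the groups.

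Within the promoters RNAPII summits lay mostly upstream of TAF3 summits and H3K4me3 summits mostly downstream. Many of these distances were shorter than the library fragments of 200 bp, so their side is uncertain. For RNAPII this holds for all genes but CCNB1 and MKI67. The RNAPII summit was upstream of the TAF3 summit in 9 of 10 genes, by 1 bp in CCNA2, 30 in CDK1, 34 in PLK1, 42 in PCNA, 43 in E2F1, 63 in CDC6 and 88 in TOP2A. Larger distances were found in CCNB1 (387 bp) and MKI67 (418 bp), and in RRM2 the RNAPII summit was 18 bp downstream. The median distance regardless of side was 42.5 bp, against 43 bp over the 11484 filtered TAF3 peaks with both partners. TAF3 and RNAPII summits were thus about as close as at TAF3 peaks in general.

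The H3K4me3 summit was downstream of the TAF3 summit in 9 of 10 genes, from 29 bp in MKI67 to 620 bp in E2F1. The exception was PCNA, where the stronger H3K4me3 peak was the one on the side of CDS2, 909 bp upstream, and the nearer H3K4me3 summit was 100 bp downstream. With the nearest summit, all 10 were downstream. The median distance was 236 bp, against 231 bp over all TAF3 peaks with both partners. TAF3 had the middle position of the 3 summits in 8 of 10 genes, compared with 61.3% of the TAF3 peaks with 3 different summits. That position rests in several genes on distances shorter than a library fragment. The peak lists carry no strand, so the side of the summit could not be set against other genes.

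**Figure D3:**
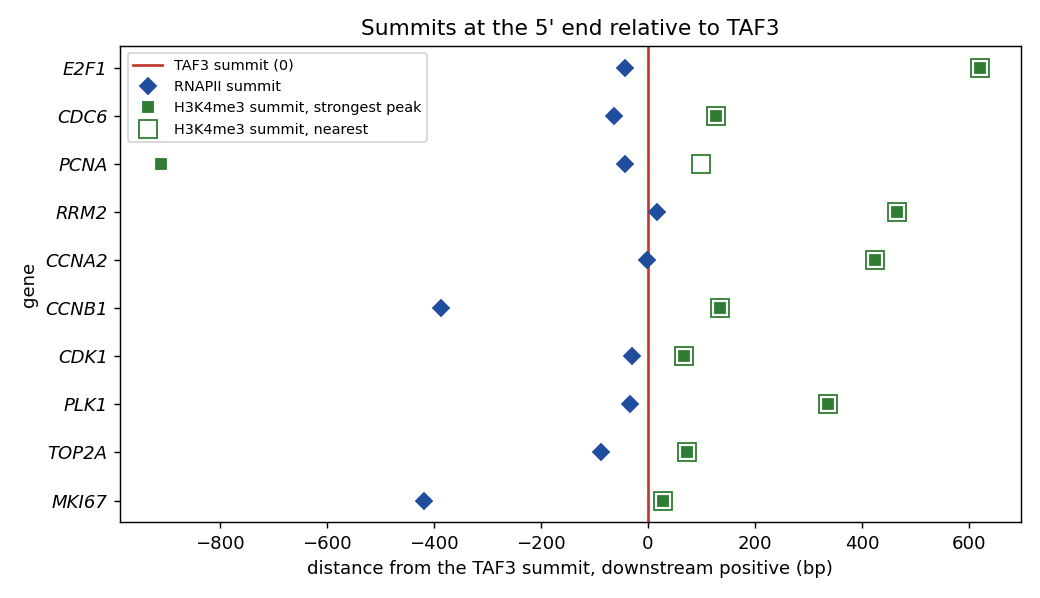
Positions of the RNAPII and H3K4me3 summits relative to the TAF3 summit of each gene, in bp and with the direction of transcription to the right. Diamonds (RNAPII) lie left of 0 in 9 of 10 genes, and filled squares (H3K4me3, strongest peak) lie right of 0 in 9 of 10; the open squares are the H3K4me3 summits nearest to TAF3.

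H3K4me3 also reached further into the gene than away from it. In the 9 genes whose strongest H3K4me3 peak contained the TAF3 summit, the mark extended 1421 to 1905 bp downstream of that summit (median 1653) and 259 to 3258 bp upstream (median 872). It was longer downstream in 8 of the 9. The exception was RRM2, where the peak also covered the upstream TAF3 peak and ran 3258 bp upstream and 1532 bp downstream. E2F1 was the most one-sided, with 1811 bp downstream and 259 bp upstream. In E2F1 and in CDC6 the TAF3 peak ran past the upstream edge of H3K4me3.

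All 10 spans had a further RNAPII peak that passed the filter at the 3′ end, taken as the last kb of the span with 2 kb on both sides. This place was singled out after the peaks had been seen. The share of other genes with such a peak was not available, so the count has no background here. In 8 genes that peak overlapped no TAF3 and no H3K4me3 peak even of the full lists, which is true of 34.4% of all filtered RNAPII peaks. The remaining 2 were E2F1 and PCNA, where all 3 antibodies had a peak, next to the neighbouring genes NECAB3 and TMEM230. In 7 of the 8 the summit lay past the end of the span, by 0.61 kb in CCNB1, 0.69 in PLK1, 1.29 in MKI67, 1.73 in RRM2, 1.77 in CDC6, 1.96 in TOP2A and 3.61 in CDK1. With span ends rounded to 1 kb, the values for CCNB1 and PLK1 are near the rounding. In CCNA2 the summit lay 2.02 kb before the end. The oppositely transcribed EXOSC9 overlaps the end of CCNA2 in RefSeq, but whether it reaches this peak was not determined.

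The 8 peaks were weak beside the promoters. Their fold enrichment ran from 9.68 in CDC6 to 24.1 in CCNB1, with 85 to 487 tags, and the promoter peak of the same gene was 5.46 (CCNB1) to 13.1 (CDC6) times as enriched. They stood between percentiles 4.53 and 33.7 of the filtered RNAPII list by fold enrichment, and between 34.3 and 91.6 by width. In MKI67 the 3′ peak was 4335 bp wide and held 487 tags at 112 tags per kb, against 413 tags at 131 tags per kb in the promoter peak. With a margin of 500 bp in place of 2 kb, 7 of the 10 genes had a filtered RNAPII peak at the 3′ end. ERN2, next to PLK1, overlaps the end of PLK1 in RefSeq, and reads there cannot be assigned to 1 of the genes.

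**Figure D4:**
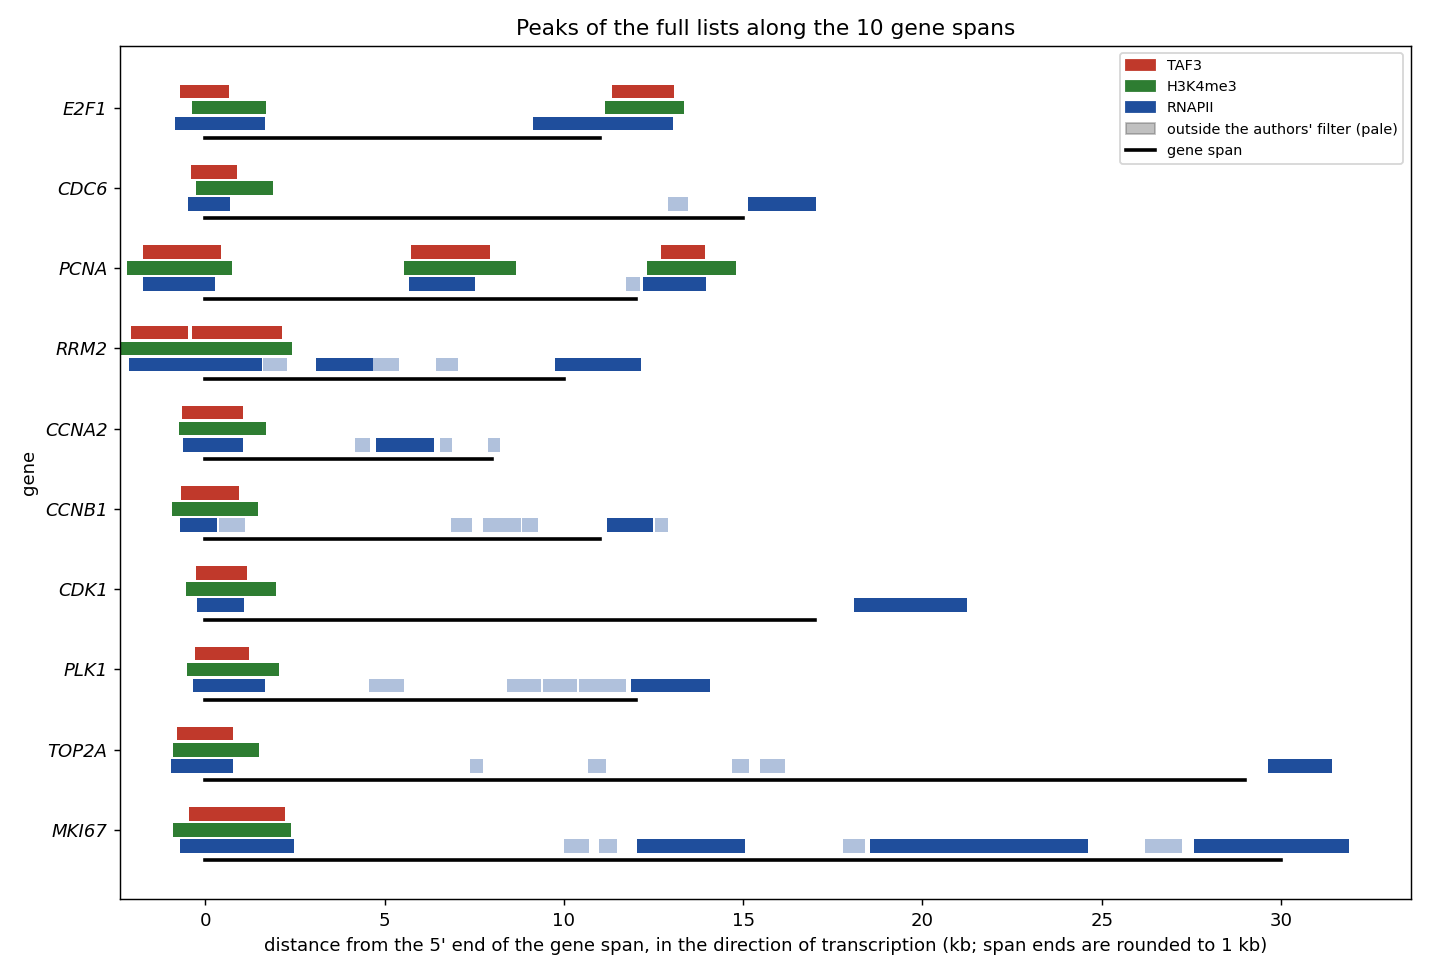
Peaks of the full lists along the 10 gene spans, drawn to scale in kb from the 5′ end in the direction of transcription, with TAF3 above H3K4me3 above RNAPII for each gene; pale bars did not pass the filter of the authors. Peaks of all 3 antibodies coincide at each 5′ end, and beyond the 3′ end most genes have an RNAPII bar alone.

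The genes differed in how RNAPII was spread between promoter, body and 3′ end. Of the RNAPII tags in peaks of the full list, the 5′ end held 25.2% to 79.1% (median 62.7%). The promoter share was 79.1% in CDC6 (Wilson 95% interval 75.6 to 82.3%, 440 tags in 1147 bp of peak), 78.2% in RRM2 (76.2 to 80.1%) and 73.8% in CCNA2 (69.8 to 77.5%). CCNB1 had 70.4% and TOP2A 69.4%, and CDK1 had 55.9% (50.8 to 60.9%).

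Leaving PCNA aside, whose span holds the inner site with TAF3, MKI67 had the most RNAPII tags in peaks of its body. Only 25.5% of its tags in peaks lay at the 5′ end (23.4 to 27.6%). Another 673 tags (41.5%) lay in 5 peaks between the ends, over 10930 bp at 61.6 tags per kb, and 536 (33.0%) at the 3′ end. Its largest inner peak, chr10:129900386-129906453, was 6068 bp wide with 434 tags at 5.34-fold, just over the filter's limit of 5. TOP2A has a span of 29000 bp, close to the 30000 bp of MKI67. It had 4 inner peaks with 64 tags in 2027 bp, and none of the 4 passed the filter. In MKI67 only the inner peaks of 434 and 163 tags passed it. By fold enrichment the inner peaks ran from 5.34 to 9.57 in MKI67 and from 9.35 to 12.0 in TOP2A. The excess of MKI67 over TOP2A is thus one of tags and not of fold enrichment. RNAPII peaks of the full list covered 57.2% of MKI67 with its margins and 15.5% of TOP2A, within a range from 10.6% in CDK1 to 67.0% in RRM2.

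PLK1 had 40.1% of its RNAPII tags in peaks at the 5′ end (36.5 to 43.9%) and 52.4% at the 3′ end. Those at the 3′ end lay in 4 peaks over 5382 bp at 65.8 tags per kb, against 135 at the 5′ end. Of the 4, only that of 206 tags (9.95-fold) passed the filter. In E2F1 (32.8% at the 5′ end) and PCNA (25.2%) the rest includes peaks with TAF3 and H3K4me3 of their own, so these shares do not describe RNAPII along 1 transcript. Sums over called peaks move with how much was called, and CDK1, CDC6 and E2F1 had 0 RNAPII peaks between their ends.

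**Figure D5:**
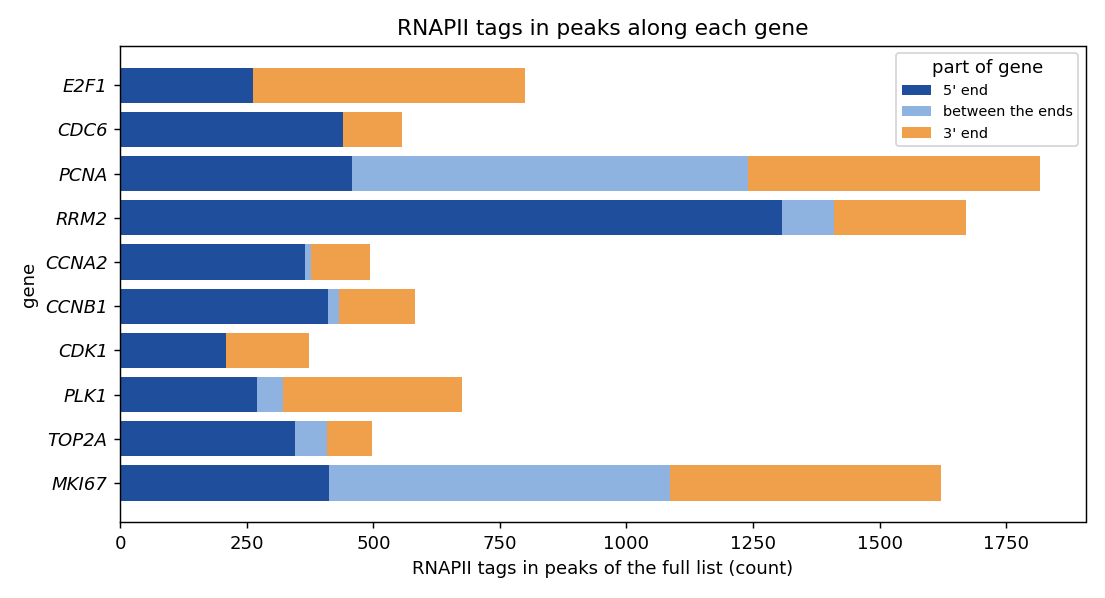
RNAPII tags in peaks of the full list for each gene, stacked by place (5′ end, between the ends, 3′ end), on a linear axis from 0. RRM2 has the largest promoter segment (1307 tags) and MKI67 the largest share between the ends among the genes other than PCNA (673 of 1622 tags).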

How the data were processed

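The members and lists were chosen with earlier results of these data known. Per the submitters' processing notes, CASAVA 1.8.2 and MACS 1.4.2 were used with hg19. How reads were aligned is not given in the sources used here. Peaks were, per the file headers, called for each antibody against 1 shared input library, with a p cutoff of 1e-05 and at most 1 tag kept per position, which bounds the count a dense place can reach. The deposited files give a tag count per peak, unscaled, a fold enrichment (a ratio to local background), a score (−10 times log10 p, reading 3100 where p was too small) and a false discovery rate in percent. Deposited positions and widths are in bp and were read as counted from 1. All per-peak values are the authors' own.

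Filtered peaks were matched to the full lists by position. A percentile is the share of filtered peaks with a lower value, and peaks overlap when they share 1 bp. All 10 genes are named by rule. Strand and promoter windows (250 bases before to 50 after a start) came from RefSeq. Other cell cycle genes, listed in the plan, were not used here because no hg19 annotation was at hand, so neither were genes of like pattern. Exact Poisson and Wilson 95% intervals cover counting error only. Python 3.11.15, numpy 2.4.6 and pandas 2.3.3 were used, and overlap code passed 7 of 7 checks on simulated data.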

Additional observations from a re-analysis of the deposited data

How the results depend on the processing

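The use of PCNA's inner peaks, the ranks within the top 20% of H3K4me3 and all alternatives at the 3′ end were chosen after seeing the data. Counts of genes with a 5′ peak stayed at 10 for every antibody with full lists and with margins of 500 bp or 5 kb, and TAF3 fell to 9 when a fold enrichment of 20 was required. Choosing the peak nearest the 5′ end left the 3 median fold enrichments as they were. With PCNA's inner peaks the median fold enrichment was 44.4 for TAF3 and 134 for RNAPII, and the median percentile 64.0 and 85.9. The median percentile of TAF3, 56.3 by fold enrichment in the filtered list, was 37.2 by tags, 28.8 by tags per kb, 43.1 by score, 71.3 in the full list, 55.4 among peaks with both partners and, for the 7 genes with H3K4me3 in the top 20%, 34.5 among peaks with such H3K4me3. That of H3K4me3, 93.6, was 67.9 by tags, 79.1 by tags per kb, 94.9 in the full list and 92.1 with both partners. That of RNAPII, 84.5, was 67.7, 71.9, 85.1 (score), 93.7, 66.3 and 49.1 in the order used for TAF3. RNAPII peaks covered a median of 37.0% of the spans, 30.2% without margins and 26.6% with the filtered list. Leaving out each gene in turn gave median fold enrichments of 35.8 to 43.9 for TAF3, 222 to 232 for H3K4me3 and 128 to 131 for RNAPII. It gave median percentiles of 49.3 to 63.3, 92.6 to 94.6 and 84.0 to 85.1, summit distances of 42 to 43 bp and cover of 36.7% to 37.4%. The cause of these shifts was not tested. No paired analysis was possible because each antibody has 1 library, and no library could be left out.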

Other observations

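The margins of 2 spans also held sites with all 3 antibodies next to a neighbouring gene. Past the 3′ end of E2F1, next to NECAB3, which is transcribed in the same direction, TAF3 had 25.5-fold enrichment with 132 tags, H3K4me3 109-fold with 664 tags and RNAPII 94.2-fold with 538 tags. All 3 exceeded the values at the E2F1 promoter. Past the 3′ end of PCNA, next to TMEM230, the site at chr20:5093075-5094307 had 24.3-fold TAF3 with 163 tags, 231-fold H3K4me3 with 989 tags and 112-fold RNAPII with 560 tags. Its H3K4me3 stood at percentile 94.4 and its TAF3 at percentile 24.1 of their filtered lists. The inner PCNA site had H3K4me3 at percentile 78.1 and TAF3 at 85.5.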
